A study of Mus musculus with 12 samples.

Results

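The genes described are the abundant protein-coding genes of mouse chromosome 8, followed in 12 tumors grown from 1 lung cancer cell line. They were chosen by their measured level in the CTL tumors: a gene was taken if its mean over the 6 CTL tumors was at least 1000 normalized counts, where a normalized count is a gene's read count divided by a factor that evens out sequencing depth between tumors. Of the 15687 genes listed for all chromosomes, 746 are protein-coding genes on chromosome 8, and 340 of these reached the level. Removing 38 genes by name, among them solute carriers, ribosomal proteins, cadherins and respiratory chain subunits, left 302 members. The same CTL values enter each comparison with the knockdown tumors, so the level in CTL tumors is not a result, and the counts of members below are descriptions.

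The tumors grew from the mouse lung cancer line mTC11, whose cells carried either a control short hairpin RNA (shControl, the CTL group, 6 tumors) or a hairpin against *Filip1l* (the *Filip1l*-knockdown or KD group, 6 tumors). In both groups 8-week-old male C57BL6/J mice received the cells in Matrigel under the skin, and tumors were taken at 24 days and frozen whole. Each arm is a selected pool of 1 line, so a change that arose in the cells during selection cannot be told apart from a response to the hairpin. Which hairpin the sequenced knockdown tumors carried is not stated, and the labels name no batch. DNA was not measured, so whether the number of copies of chromosome 8 differed between the arms was not tested.

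A chromosome holds genes of unrelated function, and what its genes share is their physical template. When cells gain or lose a copy of a chromosome, the messenger RNA of most of its expressed genes shifts the same way by a modest amount, while genes under strong feedback or inducible control can depart from that shift. Cancer cell lines often differ in whole chromosomes between sublines. In the text below, a member above 0 on the log2 fold change scale is called an escapee, which is a name for its direction and not for a mechanism.

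The reads on listed genes numbered 17834745 to 29502069 in CTL tumors and 25460564 to 32419578 in KD tumors, and the precision of each comparison is set by 6 tumors in each group. *Filip1l*, the targeted gene, stood at 1983 to 2542 normalized counts in CTL tumors and at 1670 to 2184 in KD tumors. Its log2 fold change was -0.26 ± 0.073 (SE, limma adjusted p = 0.00998), with overlapping groups. Epithelial markers were present, and 4 of 5 were higher in KD tumors. *Krt8* had a mean of 56576 normalized counts in CTL tumors and 121129 in KD tumors, and *Epcam* had 5448 and 15465. *Cdh1* was not called (log2 fold change 0.008, limma adjusted p = 0.950). Of lists of markers for other cells, 6 of 8 skeletal muscle genes (*Acta1*, itself a member, among them) were higher in KD tumors. So were 4 of 4 neutrophil genes and 4 of 5 endothelial genes, while 2 of 6 fibroblast genes were lower. Over all genes tested, 21.1% were called higher and 20.7% lower. Summed neutrophil markers ran from 272 to 346 in CTL tumors and from 729 to 1121 in KD tumors, endothelial markers from 2760 to 3366 and from 3801 to 5374, and fibroblast markers from 159034 to 258613 and from 74138 to 250941. Of 4 T cell genes 0 were called by limma, 0 had an unadjusted p under 0.05 and 0 were called by edgeR. Of 2 adipocyte genes 1 was higher, and macrophage and muscle genes are given beside the members they touch. These are whole tumors in mice of the same species, so a lower level can mean fewer cells of a kind or less RNA in each cell, and these cannot be told apart. The part of cell makeup in the shift of the members was not tested.

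Abundant chromosome 8 genes stood lower in the KD tumors, by a small amount at the median. The SD of the log2 fold changes over the members was 0.34, and they ran from -1.90 to 2.15. The median log2 fold change over the 302 members was -0.23, which is 0.855 of the CTL level, with quartiles of -0.37 and -0.09. Of the members, 257 (85.1%) were below 0 and 45 (14.9%) were above it, and 216 lay between -0.5 and 0. A further 41 were below -0.5, while 4 were above 0.5. Together the members took 3.01% to 3.36% of all normalized counts in CTL tumors and 2.62% to 2.84% in KD tumors, ranges that do not overlap.

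In the limma fit over all 15687 genes, with Benjamini-Hochberg adjustment and calls at an adjusted p under 0.05, 177 members (58.6%) were lower in KD tumors, beside 20.7% of all genes tested. In the other direction 12 members (3.97%) were higher, beside 21.1% of all genes. With the further condition of an absolute log2 fold change over 1, 9 members were lower, a smaller share than over all genes (3.97%). Under the same condition 1 was higher, also a smaller share than over all genes (6.2%). All genes were not chosen by level, while the members were. The rule used for the members took 4636 genes from the other chromosomes without 14 and 19. Of these, 95 were lower and 72 higher past both thresholds. Against these genes the members had the larger share of lower genes and the smaller share of higher genes. All 6 KD tumors lay below all 6 CTL tumors for 115 members (38.1%, background 10.9%), and above all of them for 2 members (0.662%, background 10.6%). The remaining 113 members passed the test in neither direction, of which 80 were below 0 and 33 above. Choosing the genes by the mean of the 6 KD tumors in place of the CTL tumors gave 262 genes with a median of -0.19. Of these, 131 (50%) were lower and 21 (8.02%) higher, with 5 lower and 5 higher past both thresholds. The numbers past both thresholds thus depend on the group used to choose the genes.

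**Figure D1:**
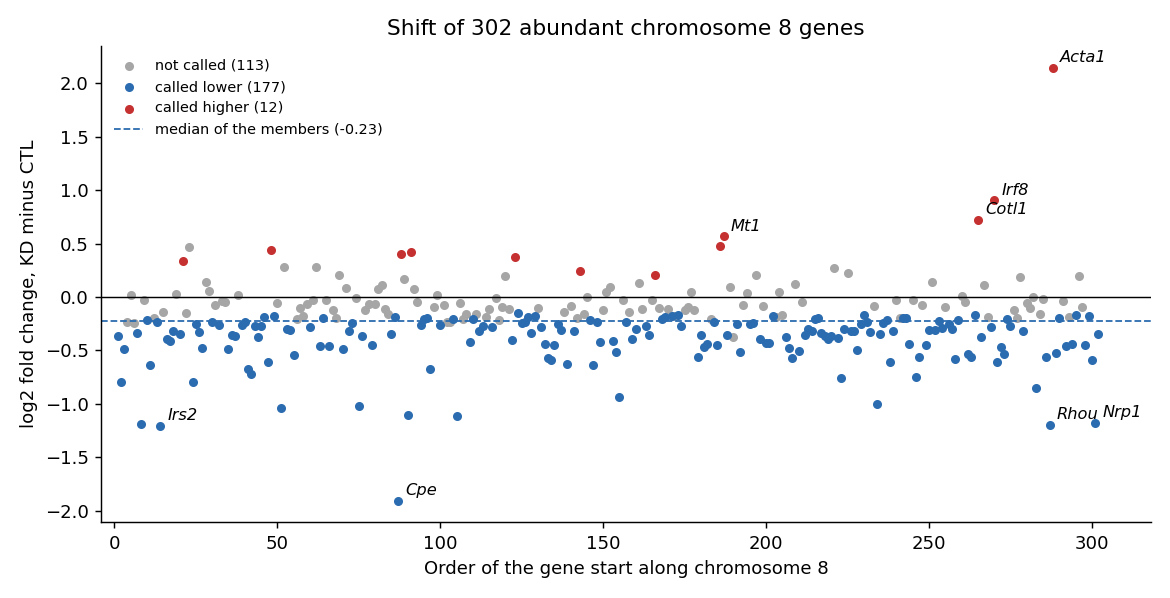
Log2 fold change (KD minus CTL, y axis) of each of the 302 members in the order of their gene starts along chromosome 8 (x axis), with colors for genes called lower (177), called higher (12) or not called (113) by limma; 1 point is 1 gene. Most points form a band just under 0 along the whole axis, around the dashed median of -0.23, with *Cpe* (-1.90) and *Acta1* (2.15) farthest out.

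The shift was present in each KD tumor. Relative to each gene's CTL mean on the log2 scale, the median over the members was -0.27, -0.20, -0.26, -0.18, -0.23 and -0.23 in KD tumors 1 to 6, and -0.01, -0.09, 0.11, -0.03, 0.05 and -0.02 in CTL tumors 1 to 6. The groups do not overlap, and CTL tumor 2 came nearest to the KD tumors. Between 234 (KD tumor 2) and 270 (KD tumor 1) of the 302 members were below their CTL mean. Single KD tumors placed 160 to 219 members below the lowest CTL tumor and 5 to 28 above the highest. These counts for single tumors were not made for other genes, so nothing is read from their size. In all 6 KD tumors 190 members (62.9%) were below the CTL mean, beside 28.5% of 4636 genes that the same rule takes from the chromosomes other than 8, 14 and 19. In all 6 above it were 15 members (4.97%), beside 21.8%.

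**Figure D2:**
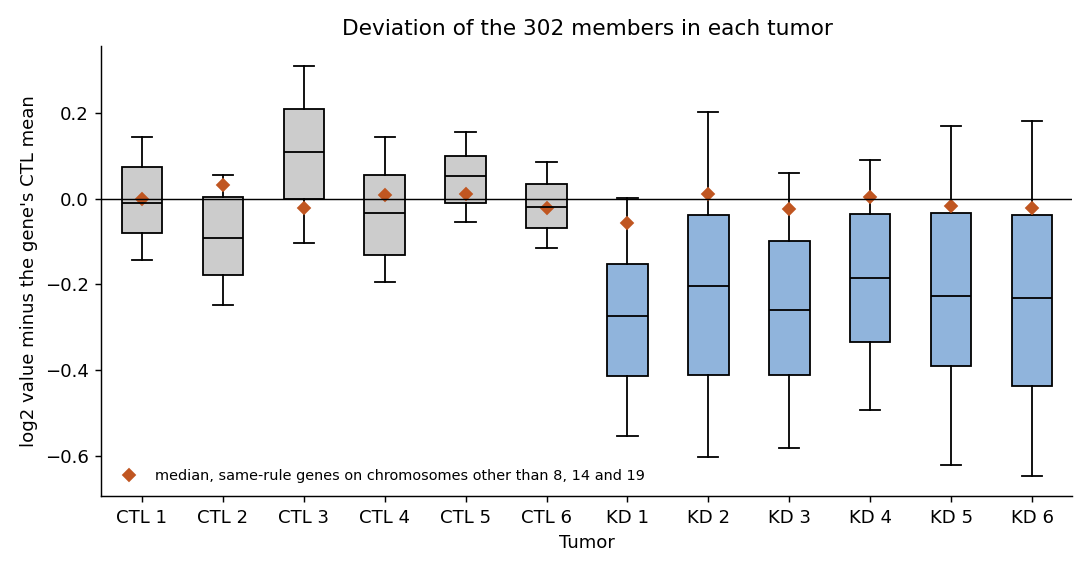
Log2 value of each member minus its CTL mean (y axis) in the 12 tumors (x axis): boxes give the quartiles and the median of the 302 members, whiskers the 10th and 90th percentiles, and diamonds the median of genes taken by the same rule from chromosomes other than 8, 14 and 19. KD medians lie between -0.27 and -0.18 and CTL medians between -0.09 and 0.11, while the diamonds stay within -0.06 and 0.03.

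Among 20 chromosomes treated with the same rule, chromosome 8 had the second lowest median. Chromosome 19 was lower, at -0.40 (247 genes), and chromosome 14 lay on the other side, at 0.38 (184 genes). The other 17 had medians from -0.07 to 0.02. The share of genes called lower was 58.6% on chromosome 8, 77.3% on chromosome 19 and 20.7% to 32.8% on the 17 others, and the share below 0 was 85.1%, 89.5% and 46.5% to 61.6%. The fold changes on chromosome 8 were also the closest together, with an interquartile range of 0.28 against 0.29 to 0.41 on the other 19. All chromosomes were compared between the same CTL and KD tumors, and no test of a difference between chromosomes was made.

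**Figure D3:**
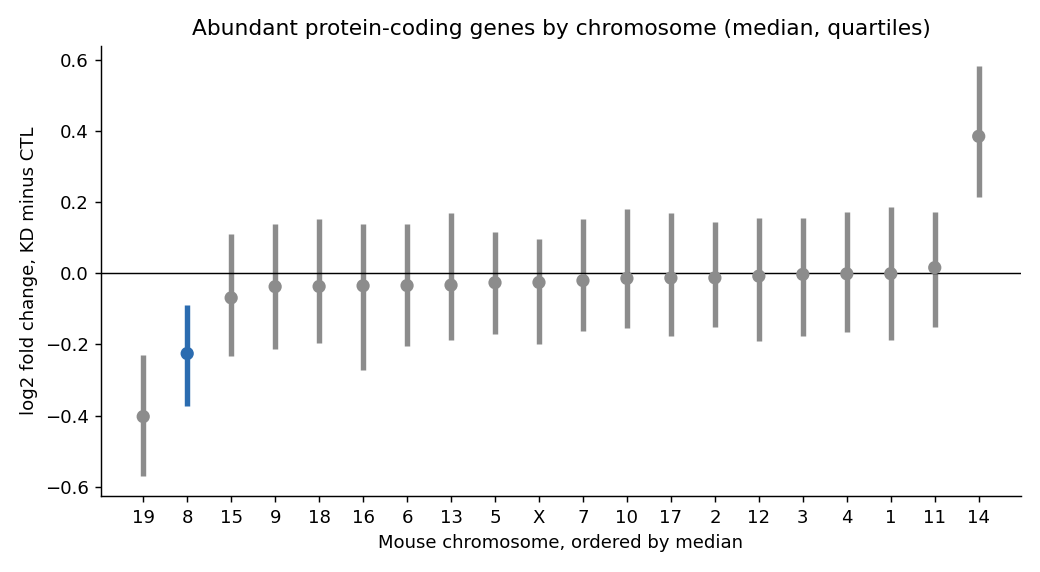
Median (point) and quartiles (bar) of the log2 fold change (KD minus CTL, y axis) of protein-coding genes whose CTL mean reached 1000 normalized counts, by chromosome in the order of the medians (x axis), with chromosome 8 in blue. Chromosomes 19 and 8 lie below the others, at -0.40 and -0.23, and chromosome 14 lies above, at 0.38.

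The lower level ran along the whole of chromosome 8. The chromosome was cut into 13 bins of 10 Mb by gene start, and all 672 of its protein-coding genes whose mean reached 50 normalized counts were placed in them. The median log2 fold change was negative in 13 of 13 bins, from -0.25 to -0.14. For the members alone it was negative in 12 of 13 bins and from -0.32 to -0.18 in the 7 bins that hold at least 20 members. The exception was the bin from 50 to 60 Mb, with 4 members and a median of 0.01, too few for a reading, and 9 genes in all with a median of -0.14. Escapees were scattered: in chromosome order no more than 2 followed each other, while the longest run of members below 0 was 25.

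**Figure D4:**
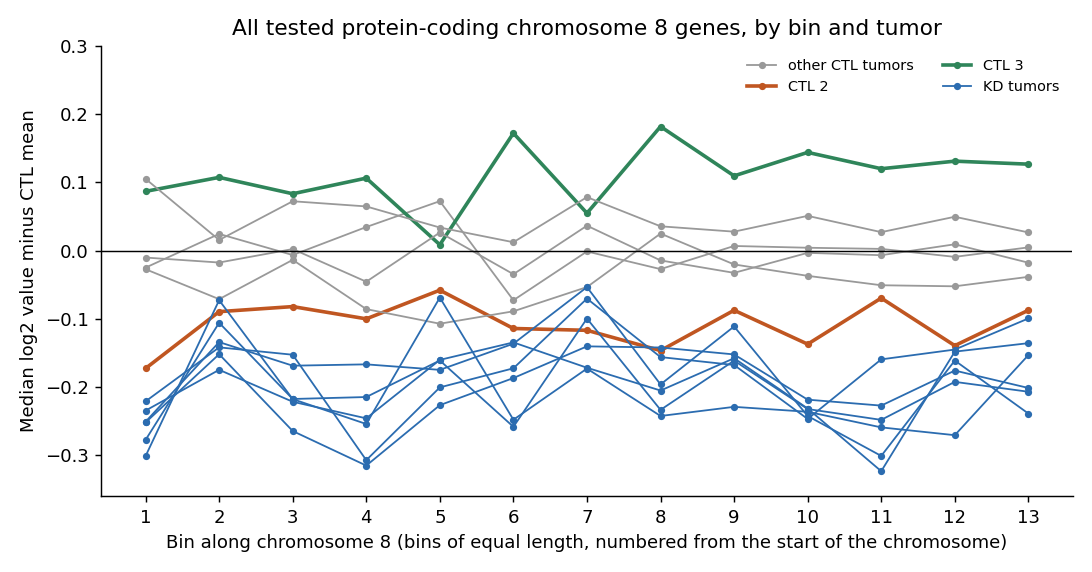
Median over all tested protein-coding genes of the log2 value minus the CTL mean (y axis) in 13 bins of equal length along chromosome 8 (x axis), with 1 line for each of the 12 tumors. KD lines stay below 0 in every bin, between -0.32 and -0.05. CTL tumor 3 lies above 0 in each bin, and CTL tumor 2 lies below 0 in each bin.

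The CTL tumors differed among themselves on this chromosome as much as on chromosome 14 and more than on the other 18. The range of the 6 CTL medians was 0.20 on chromosome 8 and 0.20 on chromosome 14, and it was 0.06 on chromosome 19 and 0.03 to 0.14 on the 17 others. CTL tumor 2 stood low and CTL tumor 3 stood high. Of the 302 members, 127 (42.1%) had their lowest CTL value in tumor 2, where 13.2% of the genes from the 17 other chromosomes did, and 150 (49.7%) had their highest in tumor 3, against 21.4%. CTL tumor 4 held the lowest value of another 86 members (28.5%, against 15.3%).

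These differences between controls also ran along the chromosome. In the bins of the 672 genes, CTL tumor 2 was below the CTL mean in 13 of 13 bins (-0.17 to -0.06). CTL tumor 3 was above it in 13 of 13 (0.01 to 0.18). All 6 KD medians lay below all 6 CTL medians in 9 bins, and below the 5 CTL tumors other than tumor 2 in 12. With CTL tumors 2 and 3 both left out, the median of the members was -0.22, with 163 (54.0%) called lower and 13 (4.30%) higher. The same fit called 2851 lower and 2942 higher of all 15687 genes.

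The spread of single members was small next to their means. The median SD of the log2 value was 0.13 among CTL tumors (quartiles 0.09 and 0.18) and 0.12 among KD tumors. For the 4636 genes from chromosomes other than 8, 14 and 19 these were 0.12 and 0.13. On chromosome 8 the CTL SD was the larger for 55.0% of members, and elsewhere for 43.4% of genes. Once each tumor's member median was subtracted the SDs were 0.11 in both groups. The log2 fold change was larger in size than the gene's own CTL SD for 227 members (75.2%), beside 63.9% of genes elsewhere.

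*Acta1*, *Ces2g*, *Gas6*, *Dusp4* and *Mt2* had the widest spread among CTL tumors, with SDs of 0.90, 0.68, 0.50, 0.39 and 0.36 on the log2 scale. *Ces2g*, a carboxylesterase, ran between 909 and 3525 normalized counts in the CTL group and between 1233 and 3096 in the KD group, with a log2 fold change of 0.13 ± 0.29 (limma adjusted p = 0.767). The steadiest were *Ctcf*, *Asah1*, *Ppp2cb*, *Msmo1* and *Map2k7*, with SDs of 0.03 to 0.04. *Ctcf* encodes the zinc finger protein that organizes chromatin loops. Its 6 CTL tumors lay between 3187 and 3411 normalized counts (median 3261) and its KD tumors between 2702 and 2942 (median 2819). The groups did not overlap, at a log2 fold change of -0.21 ± 0.041 (limma adjusted p = 0.00101), close to the median of the members. *Ppp2cb*, a catalytic subunit of protein phosphatase 2A, moved further, from 3678 to 3939 in CTL tumors to 2368 to 2770 in KD tumors (-0.54 ± 0.048, limma adjusted p = 1.21e-06). *Map2k7*, a kinase upstream of JNK, lay at 993 to 1079 and at 749 to 907 (-0.34 ± 0.055, limma adjusted p = 0.000214).

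The shift did not follow the level within the members. The 101 members with the lowest CTL means had a median log2 fold change of -0.24, the 100 in the middle -0.19 and the 101 with the highest -0.23. Escapees numbered 12, 13 and 20 in the same order. Of chromosome 8 genes below the level set for members, 332 with a mean of at least 50 had a median of -0.15. The 38 genes removed by name had a median of -0.13. Of them, 14 (36.8%) were lower and 2 (5.26%) higher, beside 20.7% and 21.1% of all genes tested. Just inside the level were *Cdt1*, *Cog2* and *Gadd45gip1*, at CTL means of 1013, 1015 and 1019 normalized counts and log2 fold changes of -0.20, -0.04 and -0.03. Just outside it were *Crispld2*, *Plvap* and *Pcid2*, at 995, 986 and 974 and log2 fold changes of -0.87, 0.65 and -0.23. *Plvap*, a protein of endothelial diaphragms, is also 1 of the 5 endothelial markers.

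Among the members with the highest counts were genes of adhesion and the cytoskeleton. *Itgb1*, the β1 integrin subunit, had the highest count, at 30271 to 34881 normalized counts in CTL tumors (median 33733) and 24376 to 26845 in KD tumors (median 26048). The groups did not overlap, and *Itgb1* fell by 0.35 ± 0.058 on the log2 scale (limma adjusted p = 0.000258). *Glg1*, a Golgi glycoprotein, fell by 0.45 ± 0.074 (limma adjusted p = 0.000222), from 9947 to 12893 in CTL tumors to 7373 to 9114. *Prdx2*, a peroxide-reducing enzyme, fell by 0.30 ± 0.084 (limma adjusted p = 0.0107), with groups that overlap between 9291 and 9493. *Tpm4*, a tropomyosin that lines actin filaments, fell by 0.15 ± 0.053 (limma adjusted p = 0.0350), and the call did not hold without CTL tumor 1, 2, 3 or 5 or KD tumor 4 or 6 (adjusted p 0.0509 to 0.0834). *Smpd3*, a neutral sphingomyelinase, had a log2 fold change of 0.22 ± 0.10 (limma adjusted p = 0.0946), with CTL tumors at 9126 to 13071 and KD tumors at 10780 to 14058. Per kilobase of exon, the highest members in CTL tumors were *Tpm4* at 8465, *Itgb1* at 8075 and *Mt2* at 5582 normalized counts per kb.

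The members that fell furthest included receptors, adaptors and enzymes. *Cpe* encodes carboxypeptidase E, which trims peptide hormone precursors in secretory granules, and lies at chr8:64592542-64693054 on the minus strand (GRCm38). Its CTL tumors held 7220, 7393 and 9093 normalized counts (lowest, median and highest) and its KD tumors 1385, 2061 and 2763. Every KD tumor was far below every CTL tumor, at a log2 fold change of -1.90 ± 0.15 (limma adjusted p = 3.82e-07), which is 0.267 of the CTL level. It was the member with the most negative fold change.

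*Irs2*, an adaptor of the insulin and IGF1 receptors, held 1389, 1494 and 1684 normalized counts in CTL tumors and 494, 634 and 815 in KD tumors. *Rhou*, an atypical small GTPase, held 2288, 2373 and 2785 and then 934, 1019 and 1323. *Nrp1*, a coreceptor for semaphorins and VEGF, held 3093, 3458 and 3800 and then 1288, 1567 and 1798. For all 3 the KD tumors lay below the CTL tumors with a wide gap. Their log2 fold changes were -1.21 ± 0.10, -1.19 ± 0.086 and -1.18 ± 0.078, and *Nrp1* had the smallest limma adjusted p of the members (1.07e-07). The two-sided exact permutation test of tumor labels gave p = 0.00216 for each of *Cpe*, *Irs2*, *Rhou* and *Nrp1*, the smallest value it can give. Every member with groups that do not overlap gets this value. These genes were picked for their fold changes, so the permutation p adds no support.

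*Ctxn1*, a small membrane protein of neurons, and *Isyna1*, the first enzyme of inositol synthesis, fell by 1.19 ± 0.12 and fell by 1.11 ± 0.10 on the log2 scale. *Isyna1* was at 4632, 5479 and 7864 normalized counts in CTL tumors and at 2407, 2566 and 2939 in KD tumors. *Psd3*, an exchange factor for ARF6, fell by 1.10 ± 0.15, *Adgra2*, an adhesion receptor of WNT7 signalling, by 1.03 ± 0.18, and *Sorbs2*, an adaptor at actin structures, by 1.02 ± 0.11. With *Cpe*, *Irs2*, *Rhou*, *Ctxn1*, *Nrp1* and *Isyna1* these are the 9 members past both thresholds. Of the 9, *Adgra2* alone had overlapping groups: KD tumor 1, at 1059 normalized counts, was above the lowest CTL tumor, at 993, while the other KD tumors were at 432 to 606. The transcription factors *Nfat5* (-0.996 ± 0.14) and *Nfix* (-0.93 ± 0.11) and the neuronal tubulin *Tubb3* (-0.85 ± 0.13) followed, with limma adjusted p of 7.78e-05, 1.06e-05 and 0.000125.

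**Figure D5:**
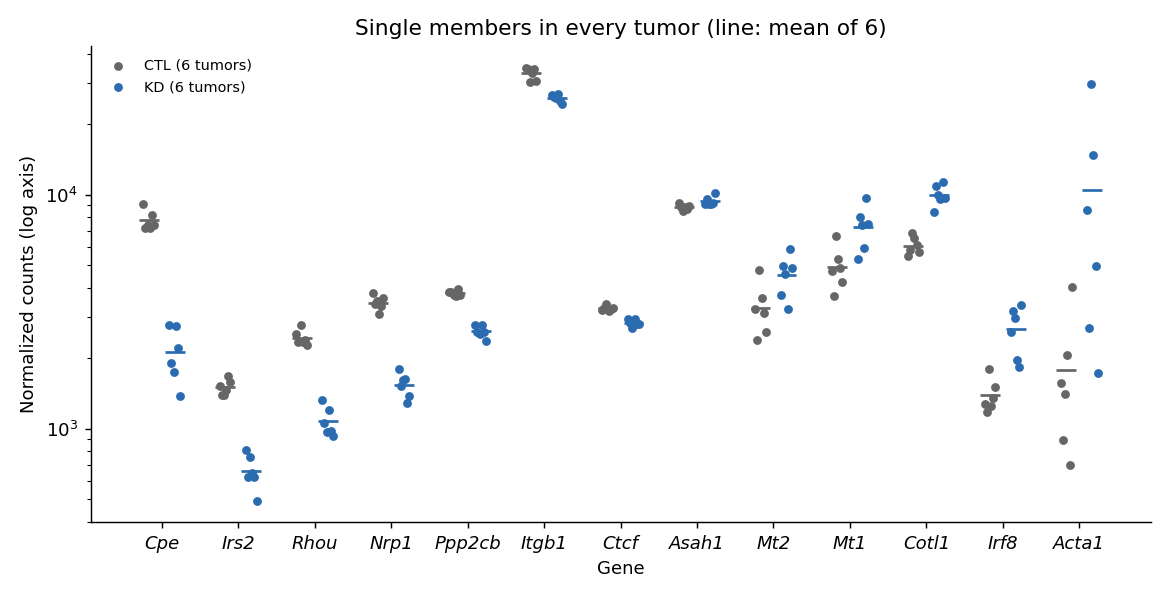
Normalized counts (log y axis) of 13 members (x axis) in the 6 CTL tumors (gray) and the 6 KD tumors (blue), with lines at the group means. *Cpe* to *Ctcf* show KD tumors below all CTL tumors, *Cotl1* and *Irf8* show KD tumors above all CTL tumors, and *Acta1* spreads from 699 to 29765.

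Of the 45 escapees, 12 passed the test as higher. They included, by fold change, *Acta1*, *Irf8*, *Cotl1*, *Mt1*, *Mt2*, *Zfp703*, *Sh2d4a*, *Msmo1*, *B3gnt3* and *Tmco3*, and further *Man2b1*, which is named here after its values were seen. *Man2b1*, a lysosomal mannosidase, was at 0.21 ± 0.078 (limma adjusted p = 0.0436). The call on *Man2b1* did not hold in edgeR (adjusted p = 0.0664), nor without CTL tumor 1, 2, 4 or 5 or KD tumor 1, 4, 5 or 6 (limma adjusted p 0.0655 to 0.0961). The number rose to 19 without KD tumor 1 and was 10 to 18 without any other single tumor. Without KD tumor 5 the number higher past both thresholds was 2 in place of 1.

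The 2 members whose KD tumors all lay above the CTL tumors were *Cotl1* and *Irf8*. *Crispld2*, just outside the level, lies between them on the chromosome and was lower (-0.87, limma adjusted p = 0.00665). *Cotl1*, a coactosin-like protein that binds filamentous actin, lies at chr8:119809222-119840544 on the minus strand, and *Irf8*, a transcription factor of myeloid cells, at chr8:120736358-120756694 on the plus strand. *Cotl1* held 5471, 5923 and 6838 normalized counts in CTL tumors and 8448, 9838 and 11360 in KD tumors (0.72 ± 0.076, limma adjusted p = 5.42e-06). *Irf8* held 1185, 1318 and 1794 and then 1841, 2775 and 3393 (0.91 ± 0.15, limma adjusted p = 0.000291). Of 6 macrophage markers 1 was higher (*Cd68*), beside 21.1% of all genes tested. Their summed levels were 12530 to 17077 in CTL tumors and 11019 to 20388 in KD tumors. Of 4 markers of neutrophils, which are also myeloid cells, 4 were higher. The summed neutrophil markers were 272 to 346 in CTL tumors and 729 to 1121 in KD tumors. The part of myeloid cells in the *Irf8* difference was not tested.

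*Acta1*, the actin of skeletal muscle fibers, had the largest positive fold change and the widest spread. Its CTL tumors held 699, 1491 and 4041 normalized counts (lowest, median and highest) and its KD tumors 1724, 6778 and 29765. The groups overlapped, since KD tumor 6 lay below CTL tumors 4 and 6 and KD tumor 2 below CTL tumor 6. The log2 fold change was 2.15 ± 0.61 (limma adjusted p = 0.0119, exact permutation p = 0.0152). It was 1.94 with an adjusted p of 0.0557 when CTL tumors 2 and 3 were both left out. The summed level of the 7 other skeletal muscle markers moved with it: it was highest in KD tumor 3 (52951) and KD tumor 4 (17809), where *Acta1* stood at 29765 and 14790, and lowest in CTL tumor 5 (1279), where *Acta1* stood at 699. In all it ran from 1279 to 6488 in CTL tumors and from 2353 to 52951 in KD tumors. Whether *Acta1* differed apart from the amount of muscle in the tumors was not tested. The coding sequence is nearly shared with other actin genes, so part of its reads may be hard to place.

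The metallothioneins *Mt1* and *Mt2*, small cysteine-rich proteins that bind zinc and copper, are neighbors. *Mt2* lies at chr8:94172664-94173568 and *Mt1* at chr8:94179082-94180327, both on the plus strand. *Mt1* held 3682, 4775 and 6672 normalized counts in CTL tumors and 5310, 7454 and 9707 in KD tumors (0.57 ± 0.15, limma adjusted p = 0.00784). *Mt2* held 2382, 3177 and 4755 and then 3241, 4706 and 5887 (0.48 ± 0.17, limma adjusted p = 0.0332). The groups overlapped for each gene, and CTL tumor 3 was the highest control and CTL tumor 2 the lowest for both. For *Mt2* the call did not hold without CTL tumor 1, 2, 5 or 6 or KD tumor 2, 3, 5 or 6 (adjusted p 0.0533 to 0.0763).

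Metallothionein genes are switched on through short metal response elements upstream of their start, and *Acta1* through muscle-specific elements. The 250 bases before a RefSeq start of each of these 3 escapees are shown. They are written in the direction of the gene, with matches in capitals to TGCACNC or TGCGCNC (the core of the metal response element) or to TGANTCA (the AP-1 site), on either strand.
*Mt2*, chr8:94172368-94172617, plus strand, GRCm38.p6: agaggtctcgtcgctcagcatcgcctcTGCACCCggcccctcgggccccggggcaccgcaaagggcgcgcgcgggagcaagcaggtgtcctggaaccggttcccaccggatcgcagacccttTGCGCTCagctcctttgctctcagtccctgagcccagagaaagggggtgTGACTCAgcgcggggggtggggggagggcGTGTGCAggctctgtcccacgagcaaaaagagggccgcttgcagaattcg
*Mt1*, chr8:94178839-94179088, plus strand, GRCm38.p6: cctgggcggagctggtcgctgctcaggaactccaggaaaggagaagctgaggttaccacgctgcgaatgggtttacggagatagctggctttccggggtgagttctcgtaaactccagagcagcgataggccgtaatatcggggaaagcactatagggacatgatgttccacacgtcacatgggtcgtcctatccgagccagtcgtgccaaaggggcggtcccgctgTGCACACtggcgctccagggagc
*Acta1*, chr8:123894776-123895025, minus strand, GRCm38.p6: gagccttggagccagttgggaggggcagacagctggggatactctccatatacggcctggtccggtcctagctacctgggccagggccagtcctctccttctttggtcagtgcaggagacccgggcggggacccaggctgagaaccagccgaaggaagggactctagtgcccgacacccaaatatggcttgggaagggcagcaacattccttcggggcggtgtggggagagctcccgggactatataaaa
The *Mt2* window holds TGCACNC 2 times, TGCGCNC 1 time and TGANTCA 1 time, the *Mt1* window holds TGCACNC 1 time, and the *Acta1* window holds none of the 3. Muscle-specific elements were not searched for. Elements after the start that was used lie outside a window, so these counts do not cover a whole promoter. Of 32851 windows of the same length before RefSeq starts, 10.4% hold TGCACNC, 12.5% TGCGCNC and 6.75% TGANTCA. Of the 263 windows found for 212 of the members, 9.89%, 27.4% and 5.70% do. The members are abundant genes, while the full set of windows was not chosen by level. Windows of abundant genes on other chromosomes were not counted, so nothing is read from these differences. A match describes letters and does not show that a factor binds.

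The other escapees with the largest fold changes were smaller in size. *Gas6*, a ligand of the TAM receptor kinases, held 2643, 3843 and 6304 normalized counts in CTL tumors and 5061, 5379 and 6769 in KD tumors. Its log2 fold change was 0.47 ± 0.19 (limma adjusted p = 0.0585), and its CTL tumors spread more widely than its KD tumors. It passed the test without CTL tumor 3 or 6 (limma adjusted p = 0.0119 and 0.0212). *Zfp703*, a transcriptional corepressor, was at 0.44 ± 0.099 and *Sh2d4a*, an SH2 domain adaptor, at 0.42 ± 0.14, the latter not called without CTL tumor 1 or KD tumor 2 (adjusted p 0.0525 for each). *Msmo1*, a demethylase of cholesterol synthesis, was among the steadiest genes in CTL tumors, at 3027 to 3259 normalized counts. In KD tumors it ran from 2916 to 4971, with KD tumor 1 below all controls and the other 5 above them (0.40 ± 0.11, limma adjusted p = 0.00768). *B3gnt3*, a glycosyltransferase, was at 0.37 ± 0.11, *Tmco3* at 0.34 ± 0.072 and *Dusp4*, a phosphatase of MAP kinases, at 0.28 ± 0.17 (limma adjusted p = 0.0157, 0.00188 and 0.205). *Asah1*, the lysosomal acid ceramidase, stayed near its control level, at 8499 to 9175 in CTL tumors and 9078 to 10138 in KD tumors (0.08 ± 0.045, limma adjusted p = 0.151).

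Grouped by function, 202 of the 302 members fell into 10 lists. The counts of each list stand beside 58.6% lower and 3.97% higher over all members, and 20.7% and 21.1% over all genes tested, and where a list is near the members' own shares nothing is read from it. Genes of DNA replication and the cell cycle had the lowest median, -0.37, with 11 of 13 lower and 0 higher. They include *Mcm5*, a subunit of the replicative helicase (-0.44), *Rnaseh2a*, which removes RNA from DNA (-0.40), *Pcm1* of the centriolar satellites (-0.49) and *Tacc1* (-0.67). Of 16 genes of splicing, RNA processing and the nuclear pore 13 were lower, 0 higher and 0 above 0, with a median of -0.33, among them *Nup133* (-0.52), *Nudt21* (-0.45) and *Sf3b3* (-0.44). The signalling list had a median of -0.34, with 14 of 21 lower and 0 higher. Besides *Irs2* it was led by *Rasa3* (-0.79), a GTPase-activating protein for Ras, and *Fgfr1* (-0.72), whose groups overlap. Over all genes tested the median was 0.01, and over the members -0.23.

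Genes of the cytoskeleton and adhesion had 14 of 19 lower and 2 higher, *Acta1* and *Cotl1*, with a median of -0.30, and *Homer3* (-0.68) followed *Nrp1*, *Sorbs2* and *Tubb3*. Of 30 chromatin and transcription genes 17 were lower and 2 higher (median -0.26), with *Samd1* at -0.64, *Zfhx3* at -0.61 and *Rbl2*, a relative of the retinoblastoma protein, at -0.56. Of 27 genes of folding, ubiquitin and the proteasome 17 were lower and 0 higher (median -0.23), led by the F-box gene *Fbxo31* (-0.61), the deubiquitinase *Otud4* (-0.59) and *Nae1* of the NEDD8 pathway (-0.57). Translation and tRNA genes had 7 of 15 lower and 0 higher (median -0.19), with *Trmt1*, a tRNA methyltransferase, at -0.51.

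The lists with medians nearest to 0 were those of vesicle traffic, of metabolism and of secreted and immune proteins. Vesicle, endosome and autophagy genes had 10 of 26 lower and 0 higher (median -0.14), with *Map1lc3b*, a marker of autophagosomes, at -0.47 and *Dync1li2*, a dynein light intermediate chain, at -0.48. Mitochondrial, lipid and other metabolic genes had 10 of 23 lower and 2 higher, *Msmo1* and *Man2b1* (median -0.11), and 9 of the 23 were above 0. *Pla2g15*, a lysosomal phospholipase (-0.75), and *Mbtps1*, the protease that cuts SREBP (-0.56), were lower in that list. Secreted, metal-binding and immune genes had 2 of 12 lower, *Cpe* and the sialyltransferase *St3gal2* (-0.75), and 3 higher (median -0.03), namely *B3gnt3*, *Mt1* and *Mt2*. In the 6 lists with 0 higher, 1 member had an unadjusted p under 0.05 and a positive fold change, and edgeR called 0. Differences between the lists were not tested.

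Members were also compared with the chromosome's own shift. Each tumor was centred on the median of all abundant chromosome 8 genes, most of them members, which took -0.22 off the contrast and moved the median of all genes to 0.23. This scaling puts members on both sides of 0 by construction, with 151 of 302 above 0, so the balance of the calls is a description only. limma then called 66 members lower (21.9%) and 59 higher (19.5%), where 9.18% of all genes were called lower and 41.8% higher. *Cpe* was then at -1.68 ± 0.15, *Irs2* at -0.98 ± 0.11 and *Nrp1* at -0.95 ± 0.086, and *Cotl1* was at 0.95 ± 0.070, *Irf8* at 1.13 ± 0.15, *Mt1* at 0.79 ± 0.14 and *Asah1* at 0.31 ± 0.058 (limma adjusted p from 1.51e-07 for *Cotl1* to 0.000510 for *Asah1*).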

How the data were processed

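RNA from 12 subcutaneous mTC11 tumors (6 CTL, 6 *Filip1l*-knockdown) was sequenced with paired reads. The authors trimmed reads with Trimmomatic 0.36, aligned them with STAR 2.5.2b, counted unique hits per gene with featureCounts of Subread 1.5.2 and divided the counts by DESeq2 size factors. The processing notes name mm10; the strand setting is not given in the sources used here, so overlapping and antisense genes cannot be separated. The deposited signal is these normalized counts, with 0 columns left unmapped. Every value was a whole multiple of 1 step per tumor (100% of genes, tolerance 0.01), which gave the reads per tumor and a count test as an alternative.

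The members, function lists and cell type markers were chosen with earlier results of these data known. Positions, gene types and exon lengths came from GENCODE vM21 (GRCm38), matching 15661 of 15687 genes (99.8%), and upstream sequences from RefSeq (GRCm38.p6). Proteins were not used here. Members had a CTL mean of at least 1000. Symbols that begin with Slc, Rpl, Rps, Nduf, Cox, Atp6, Rab, Arhg, Cdh, Mmp, Adam, Col or Lamp were left out, as were *Nqo1*, *Hmox1*, *Gsr*, *Junb*, *Jund*, *Calr*, *Esrp2*, *Fat1* and *Cyba*.

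Values were tested as log2(normalized count + 1) with limma 3.58.1 in R 4.3.3 (variance trend, Benjamini-Hochberg adjustment over all genes). A filter at a mean of 5 removed 0 genes. Errors beside log2 fold changes are limma's SE, and all fold changes and differences are on the log2(value + 1) scale. Named members also had an exact two-sided permutation test. Its p is not adjusted, and members were mostly named by their values, so it gives no support of its own. Replicates are separate tumors by the labels. The fit was tested on simulated data. Alternatives changed the pseudocount, filter, scaling, variance trend, replicate block, tumors and membership; edgeR 4.0.16 was run on the recovered reads. Genes are named if they are among the 12 most negative or 12 most positive fold changes, the 5 highest CTL means, the 3 nearest the level on each side, the 5 largest or smallest CTL SDs, the 3 smallest adjusted p in each direction, *Mt1* and *Mt2*, or the 6 largest changes of a function list. Some members are counted but not reported by name here.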

Additional observations from a re-analysis of the deposited data

Results flagged for a closer look

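Single tumors stood apart from the rest of their group in 8 of 162 groups of 6 values tested, where chance gives about 1 group in 20. The test divided the gap between the extreme tumor and its nearest neighbor by the range of the group and compared it with Dixon's 95% critical value. It was run on 79 named members, *Filip1l* and the median of the members.

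CTL tumor 3 was the outlying tumor for 4 of the 8, each time as the highest control: *Ctxn1* at 1620 normalized counts (others 1044 to 1254), *Usp10* at 5124 (3602 to 4065), *Ap1m1* at 2579 (1938 to 2153) and *Pik3r2* at 4619 (3823 to 4082). CTL tumor 4 was the lowest control for *Mbtps1*, at 5237 (others 5990 to 6371). KD tumor 1 was the highest KD tumor for *Adgra2*, at 1059 (432 to 606), and for *Tacc1*, at 1039 (641 to 789). KD tumor 3 was the lowest for *Fto*, at 2081 (2181 to 2228). Of these 8 genes, all were called lower with all 12 tumors, and *Ap1m1* lost its call without KD tumor 3 (adjusted p 0.0516).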

How the results depend on the processing

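The median log2 fold change of the members stayed between -0.27 and -0.19 under every alternative except centring on chromosome 8, which sets it near 0 by construction, and ran from -0.24 to -0.21 with single tumors left out. With single tumors left out, 159 to 180 members were called lower and 10 to 19 higher (19 without KD tumor 1). Over all genes the same fits called 2901 to 3423 lower and 2984 to 3508 higher. Past both thresholds 7 to 10 members were lower and 1 to 2 higher (2 without KD tumor 5). Members above 0 numbered 39 to 57. The pseudocount, filter, scaling, variance trend and edgeR alternatives kept each count within 1.5 times, at 168 to 192 lower and 10 to 15 higher. They moved the median of all genes by less than 0.1. Over all genes they called 2997 to 3667 lower and 2940 to 3562 higher. Membership moved the counts, by construction where fewer or more genes were taken: over KD tumors 21 were higher, and 5 lower and 5 higher were past both thresholds; over all 12 tumors 3 were higher past both; at a level of 500, 25 were higher, 3 of them past both, and 73 lay above 0; at 2000, 94 were lower, 7 higher, 0 higher past both, and 27 above 0. After seeing the data, edgeR on the recovered reads was added, which called 185 members lower and 11 higher (3364 and 3262 of all genes). Leaving out CTL tumors 2 and 3 together was also added, which left 0 higher past both, as was centring on chromosome 8, which left 66 lower and 59 higher, 1 and 2 of them past both, with a median of -0.0020, 151 members above 0 and a negative median in 4 of 13 bins. In the other fits the median was negative in 13 of 13 bins. Of 79 named members, *Gadd45gip1* (-0.082 to 0.043) and *Ces2g* (-0.10 to 0.29) changed sign with a tumor left out, and neither was called.

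The replicate numbers did not pair the tumors (correlations of deviations -0.269 to 0.0990). With a replicate block 160 members were called lower and 12 higher, beside 2892 and 3013 of all genes. Of the member calls, 158 and 10 were shared with the fit without the block. *Mt2* (limma adjusted p 0.0530), *Tpm4* (0.0584) and *Man2b1* (0.0757) lost their calls, and *Gas6* (0.0257) gained one.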
